A study of Homo sapiens with 10 samples.

Results

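The tubulin genes of HEK293FT cells were examined through the levels of their mRNAs. The 10 genes followed are TUBA1A, TUBA1B, TUBA1C and TUBA4A (alpha-tubulins), TUBB, TUBB2A, TUBB2B, TUBB3 and TUBB6 (beta-tubulins) and TUBG1 (gamma-tubulin). They were chosen by symbol, and each row of the table was taken whose name is one of these symbols or holds one among several joined by commas. This gave 18 of 20246 rows: 11 were above 0 in at least 1 library, and 7 further rows, all named TUBB,TUBB2C, were at 0 in every library. HEK293FT is an established human line of embryonic kidney origin that takes up plasmids well, and all the cells studied carried Gaussia and Cypridina luciferase reporters delivered by lentivirus. All 10 libraries come from cells given a dCas9-VP64 plasmid (59 ng), which encodes a Cas9 without cutting activity joined to a transcriptional activator. It was given alone (CasVP) or with 11.6 ng of plasmid for a guide RNA aimed at the Gaussia reporter, labelled sgRNA, INT, P4P6 or TOP1, with 2 libraries in each of the 5 groups. Carrier plasmid (679.4 ng) and Lipofectamine (2.25 uL) were shared by all groups. The labels call the guides modified and do not say how they differ. Cells were plated at 125000 per well and transfected 1 day later, and polyadenylated RNA was taken after 3 further days. The name TOP1 stands for a guide here, not for the gene.

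Microtubules are hollow polymers of alpha-tubulin and beta-tubulin, which join as a heterodimer before they add to a filament end. Gamma-tubulin sits in a ring complex that starts new microtubules at centrosomes and other sites. Vertebrates have several genes, called isotypes, for each class; TUBB is the beta isotype of most dividing cells, TUBB3 is best known from neurons, and the isotypes differ most in the acidic tail at the end of the protein. New tubulin passes through prefoldin, the chaperonin CCT and the tubulin cofactors, and free tubulin in excess leads to decay of tubulin mRNAs on ribosomes, a feedback in which TTC5 recognizes the start of the nascent protein.

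The table joins several of the alpha and beta genes in 1 row, and the sequences show how alike these genes are. The first 30 coding bases are shown because in alpha- and beta-tubulin they encode the start of the protein that TTC5 reads. TUBG1 is given beside them for comparison only. The first 12 bases are in capitals. The sequences are from the GENCODE v29 annotation of GRCh38, and TUBA1A and TUBA1C have the same 30 bases as TUBA1B.
TUBA1B: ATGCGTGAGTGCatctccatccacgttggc
TUBA4A: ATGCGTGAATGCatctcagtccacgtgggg
TUBB: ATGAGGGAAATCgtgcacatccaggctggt
TUBB2A: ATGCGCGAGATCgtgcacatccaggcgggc
TUBB2B: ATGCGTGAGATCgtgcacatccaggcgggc
TUBB3: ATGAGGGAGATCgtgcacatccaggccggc
TUBB6: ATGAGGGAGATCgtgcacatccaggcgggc
TUBG1: ATGCCGAGGGAAatcatcaccctacagttg

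The alpha genes of the joint row, TUBA1A and TUBA1B, have coding sequences of 1356 bases, stop codon included, that are 97.2% identical and differ at 38 positions. The last 75 coding bases before the stop codon do not differ at all between them.

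The beta pair TUBB2A and TUBB2B is closer still, with 98.1% identity and 25 differing bases of 1338. The 60-base stretch with the most differences, coding bases 121 to 180 counted from the A of the start codon, holds 7 of them; it is shown because it tells the pair apart, with differing bases in capitals.
TUBB2A: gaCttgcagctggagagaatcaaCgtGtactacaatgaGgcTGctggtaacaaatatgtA
TUBB2B: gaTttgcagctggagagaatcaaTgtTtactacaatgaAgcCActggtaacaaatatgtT

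The coding sequences of TUBB and TUBB3 are 81.7% identical. The last 75 coding bases before the stop codon, which encode the acidic tail, are shown with the columns that differ or are gapped in capitals; 42 of 81 aligned columns differ.
TUBB: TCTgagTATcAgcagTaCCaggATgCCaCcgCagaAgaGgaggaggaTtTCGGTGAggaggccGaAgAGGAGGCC
TUBB3: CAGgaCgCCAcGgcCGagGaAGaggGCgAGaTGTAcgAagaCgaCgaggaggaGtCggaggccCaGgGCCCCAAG

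Identity alone does not mark which genes share a row. TUBB2C is an older symbol of TUBB4B in RefSeq, and TUBB and TUBB4B are 84.4% identical, with no stretch of 50 coding bases that TUBB shares with any of the compared genes. TUBB is likewise listed in RefSeq as an older symbol of TUBB2A. Of the 50-base stretches of TUBB2A, 72.4% also occur in another compared gene, and of those of TUBA1B 68.3%, against 58.4% for TUBA1A, 57.0% for TUBA1C, 11.7% for TUBB3 and 1.55% for TUBB6. TUBA4A, TUBB and TUBG1 share none. Across the compared genes, alpha sequences were 80.6 to 97.2% identical to each other, beta sequences 80.9 to 98.1%, alpha to beta 53.4 to 56.4%, and TUBG1 to either class 51 to 55%. The joint rows are reported as joint throughout: TUBA1B, TUBB, TUBB2B, TUBB3 and TUBB6 occur in no row of their own that is above 0.

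**Figure D1:**
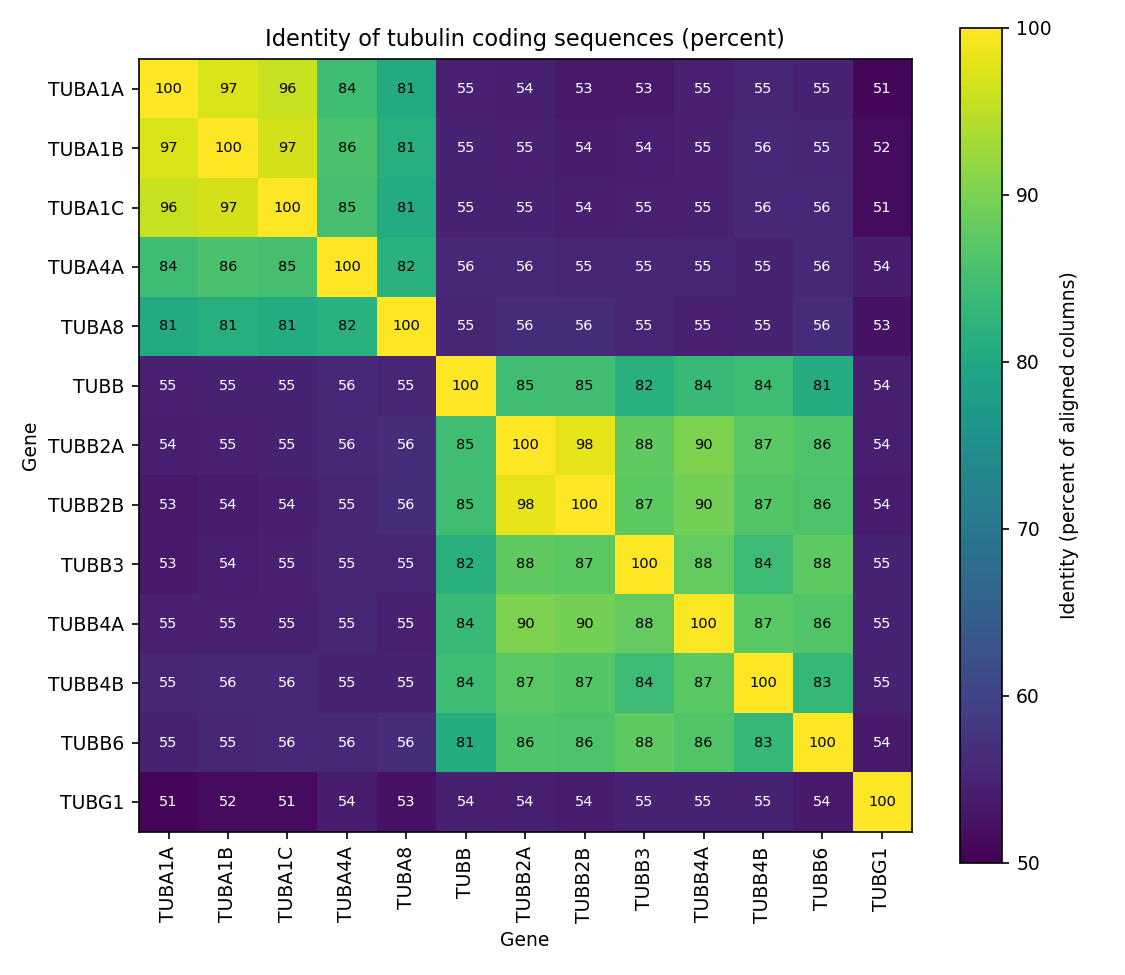
Percent identity of the coding sequences of 13 tubulin genes (both axes; GENCODE v29), each cell a pair and the colour scale running from 50 to 100%. TUBA1A is 97.2% identical to TUBA1B and 95.9% to TUBA1C, TUBB2A and TUBB2B are 98% identical, and TUBG1 is 51 to 55% identical to every other gene.

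Positions are those of the GRCh38 annotation. TUBA1B (chr12:49127782-49131395, minus strand), TUBA1A (chr12:49184796-49189324, minus strand) and TUBA1C (chr12:49264907-49274603, plus strand) are neighbours, and TUBA4A stands alone at chr2:219249711-219254032. TUBB2A (chr6:3153669-3157526) and TUBB2B (chr6:3224261-3227735) lie side by side on the minus strand, while TUBB is elsewhere on the same chromosome (chr6:30720201-30725426). TUBB3 is at chr16:89923279-89936097 next to MC1R, TUBB6 at chr18:12308059-12326619 and TUBG1 at chr17:42609676-42615234. The principal transcripts of the alpha and beta members have 4 exons each, and that of TUBG1 has 11. Rows that name 1 of these genes alone run in the order of chromosome names sorted as text: TUBA1A, TUBA1C, TUBG1, TUBA4A and TUBB2A. A TUBA1C row (plus strand) comes before the TUBA1A,TUBA1B row (minus strand). The row named TUBA1A alone directly precedes that TUBA1C row, where a plus-strand gene would fall, although TUBA1A is on the minus strand. Name and place can thus disagree. The place of a row was read as a sign of its locus, though not of which fragments were counted there.

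All levels below are in FPKM, which counts fragments relative to transcript length and to the size of the library, so levels of different genes are compared per length. The 10 libraries held an estimated 19800000 (P4P6 replicate 0) to 29000000 (TOP1 replicate 0) fragments, and their upper quartiles were 17.3 to 17.7 FPKM. The Gaussia reporter read 23.8 and 22.7 in CasVP, 787 and 857 with sgRNA, 356 and 366 with INT, 189 and 163 with P4P6, and 257 and 273 with TOP1. The dCas9-VP64 transcript was at 14.8 and 14.6 in CasVP and between 16.1 and 25.9 in the guide libraries, and its part in the differences below was not tested. Of 11 rows for genes typical of the HEK293 line, 8 had means above 1 FPKM (VIM highest at 248.0 ± 16.8, SD, n = 10, and the higher KRT8 row lowest of these at 7.13 ± 1.19), and PAX2 (0.926), NEFH (0.180) and a further KRT8 row (0.105) were under 1. Of the 10 neuronal marker rows, 7 had means under 1 FPKM, DCX at 0.0280 and ELAVL3 at 0.0226 among them, while INA (15.0 ± 0.852), SYT1 (4.06 ± 0.429) and GAP43 (1.49 ± 0.417) were higher. Blood, liver and ciliated-cell markers had means under 1 FPKM, and of the fibroblast markers COL1A1 reached 1.43 and the others at most 0.221. Columns carry an index of 0 or 1 that was not matched to the labelled replicate numbers, and the labels do not state separate cultures, so p-values measure the spread between these libraries only, which may be technical.

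HEK293FT cells expressed 1 dominant row in each class. Among alpha-tubulins, the joint TUBA1A,TUBA1B row stood at 525.9 ± 42.3 FPKM (SD over all libraries, n = 10), 5.78 times the next row. Among beta-tubulins, the joint TUBB,TUBB2C row stood at 585.1 ± 41.4, 6.12 times the next. TUBG1, the gamma-tubulin of the nucleating ring, was at 36.3 ± 2.64. In bulk RNA, more cells with a transcript and more of it per cell cannot be told apart. The summed alpha rows came to 667.1 ± 49.8 FPKM and the summed beta rows to 744.6 ± 44.2, a ratio of 0.896 ± 0.0363, and together they held 0.222 to 0.264% of all FPKM in a library.

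The TUBA1A,TUBA1B row carried 78.8 ± 0.812% of summed alpha FPKM, from 77.3% in CasVP replicate 0 to 80.1% in TOP1 replicate 0. Its values were 457 and 514 FPKM in CasVP, 571 and 509.8 with sgRNA, 567 and 523 with INT, 474 and 505 with P4P6, and 558 and 581 with TOP1. The lowest library was of the CasVP group and both INT and both TOP1 libraries were above both CasVP libraries. A row named TUBA1A alone was at 0 in 8 libraries and read 0.0479 in INT replicate 1 and 0.0386 in TOP1 replicate 0. Divided by the depth step of their libraries these come to 0.0391 and 0.0393, as an equal number of fragments in each would give. This row lies where a plus-strand gene would fall, so its level near 0 need not be that of TUBA1A. The joint row comes directly before the higher TUBA1C row, where TUBA1B would fall if that row marks the TUBA1A locus. Whether fragments of TUBA1A, known from neurons, were counted in it with those of the widely expressed TUBA1B is not shown.

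TUBA1C, an isotype with the same coding start as TUBA1A and TUBA1B, has 2 rows by name, which were kept apart. The lower row comes well before TUBA1A,TUBA1B in row order, where the plus-strand TUBA1C would fall. The higher row directly follows TUBA1A,TUBA1B, whose genes are on the minus strand with TUBA1B first. Its place is that of a minus-strand gene such as TUBA1A, so its name may not mark its isotype. The higher row averaged 91.0 ± 7.90 FPKM, 13.6% of summed alpha, and the lower one 29.1 ± 1.82, 4.37%. The higher row read 83.3 and 92.1 in CasVP, 100.3 and 89.8 with sgRNA, 98.0 and 86.1 with INT, 77.4 and 91.7 with P4P6, and 88.4 and 103 with TOP1. The lower row read 29 and 27.5, 29.9 and 30.9, 30.8 and 27.5, 25.5 and 28.7, and 29.6 and 31.3 in the same order. P4P6 replicate 0 was the lowest library for both, and the higher row was 2.87 to 3.36 times the lower one.

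TUBA4A, an isotype abundant in platelets and muscle, was low in every library, at 1.41 ± 0.171 FPKM or 0.213% of summed alpha. It read 1.06 and 1.58 in CasVP, 1.41 and 1.62 with sgRNA, 1.22 and 1.44 with INT, 1.56 and 1.45 with P4P6, and 1.33 and 1.46 with TOP1. Its CasVP libraries span nearly the range of all the others. About 61 to 93 fragments per library lie behind these values, a counting error of 12.8 to 10.3%. Between TUBA1C and TUBA4A stood the joint PEX26,TUBA8 row (19.5 ± 0.903), which also holds a peroxisome gene; of the other alpha rows, TUBA3D had a mean of 0.202 and the rest were lower.

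The TUBB,TUBB2C row carried 78.5 ± 1.03% of summed beta FPKM, between 76.4% (P4P6 replicate 0) and 79.8% (TOP1 replicate 1). It read 550.3 and 551 FPKM in CasVP, 615 and 613 with sgRNA, 651 and 560.3 with INT, 517 and 572 with P4P6, and 596 and 624 with TOP1. All libraries with the sgRNA, INT and TOP1 guides were above both CasVP libraries, whereas the P4P6 libraries lay on either side of them. This row exceeded TUBA1A,TUBA1B in 10 of 10 libraries, by 1.07 to 1.20 times, although the ranges of the rows over all libraries overlapped. TUBB2C also has a row of its own, at 95.7 ± 2.66 FPKM (12.9% of summed beta) with 91.7 to 100.6 over the libraries. In row order the joint row comes after PEX26,TUBA8 (chr22) and before TUBB2A (chr6), where TUBB (chr6, plus strand) would fall. The TUBB2C row comes after these, where TUBB4B (chr9) would fall. The joint row was therefore read as the TUBB locus. Whether fragments of TUBB2C were counted in it is not shown.

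TUBB6 occurs only in rows joined with TUBB2A or TUBB2B. In row order, TUBB2A,TUBB6 comes after TUBG1 (chr17) and before TUBA4A (chr2), where TUBB6 (chr18) would fall. TUBB2B,TUBB6 directly follows the TUBB2A row, where TUBB2B (chr6) would fall. By place, then, the former is the TUBB6 locus and the latter the TUBB2B locus. The TUBB2A,TUBB6 row averaged 23.7 ± 1.78 FPKM (3.18% of summed beta) and read 22.7 and 21.6 in CasVP, 25.1 and 24.9 with sgRNA, 25.3 and 22.8 with INT, 22.4 and 21.3 with P4P6, and 26.5 and 24.5 with TOP1. The TUBB2B,TUBB6 row averaged 17.2 ± 1.39 (2.32%) and read 15.5 and 16.4, 17.4 and 15.7, 19.8 and 16.6, 16.9 and 19.2, and 16.9 and 17.8 in that order. The first of these rows was lowest in the CasVP and P4P6 libraries, and the second was lowest in CasVP replicate 0 and sgRNA replicate 1. TUBB2A alone averaged 5.15 ± 0.483 (0.694%), with 4.77 and 4.72 in CasVP, 4.90 and 4.84 with sgRNA, 5.35 and 5.51 with INT, 5.16 and 6.32 with P4P6, and 4.90 and 5.06 with TOP1. It was the 1 tested row of the listed genes whose 8 guide libraries were all above both CasVP libraries; 2.14% of all tested rows had that pattern, and the reverse pattern was seen in 0 of 10 listed rows and 2.68% of all. TUBB2A and TUBB2B are best known from the developing brain, and TUBB6 is a more widely expressed isotype.

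TUBB3, the beta isotype most used to mark neurons, occurs only in a row joined with TUBB2C and MC1R, the melanocortin receptor gene beside it. That row was low, 5.66 ± 0.322 FPKM or 0.761% of summed beta, and varied least of the tested rows of listed genes, 1.22 times from lowest to highest library; TUBA4A varied most, 1.53 times. Its values were 5.16 and 5.45 in CasVP, 5.67 and 5.97 with sgRNA, 6.30 and 5.68 with INT, 5.69 and 5.80 with P4P6, and 5.39 and 5.45 with TOP1. The mean of the TUBB,TUBB2C row was 103.5 times as high. A further row, TUBB4, stood at 6.14 ± 0.697, and RefSeq lists that older symbol for both TUBB3 and TUBB4A. In row order it comes after TUBG1 (chr17) and before TUBA4A (chr2), where TUBB4A (chr19) would fall. The MC1R,TUBB2C,TUBB3 row comes before TUBG1, where TUBB3 (chr16) would fall. TUBB4 was therefore read as TUBB4A and was not counted with the listed genes. The neighbouring beta rows TUBB4, MC1R,TUBB2C,TUBB3, TUBB2A and TUBB4Q,TUBBP5 (4.59) overlapped one another in their ranges, and the steps between the higher beta rows did not.

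TUBG1 read 36.2 and 37.7 FPKM in CasVP, 32.5 and 36.1 with sgRNA, 36.7 and 36.1 with INT, 38.9 and 39.9 with P4P6, and 31.3 and 37.6 with TOP1. The P4P6 libraries were the highest of all and TOP1 replicate 0 the lowest. TUBG2, its close paralog, averaged 3.49 ± 0.339, and TUBE1 and TUBD1, epsilon and delta tubulins of centrioles, 28.0 ± 0.889 and 6.82 ± 0.734. TUBG1 was above TUBE1 in 10 of 10 libraries with no overlap of ranges.

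**Figure D2:**
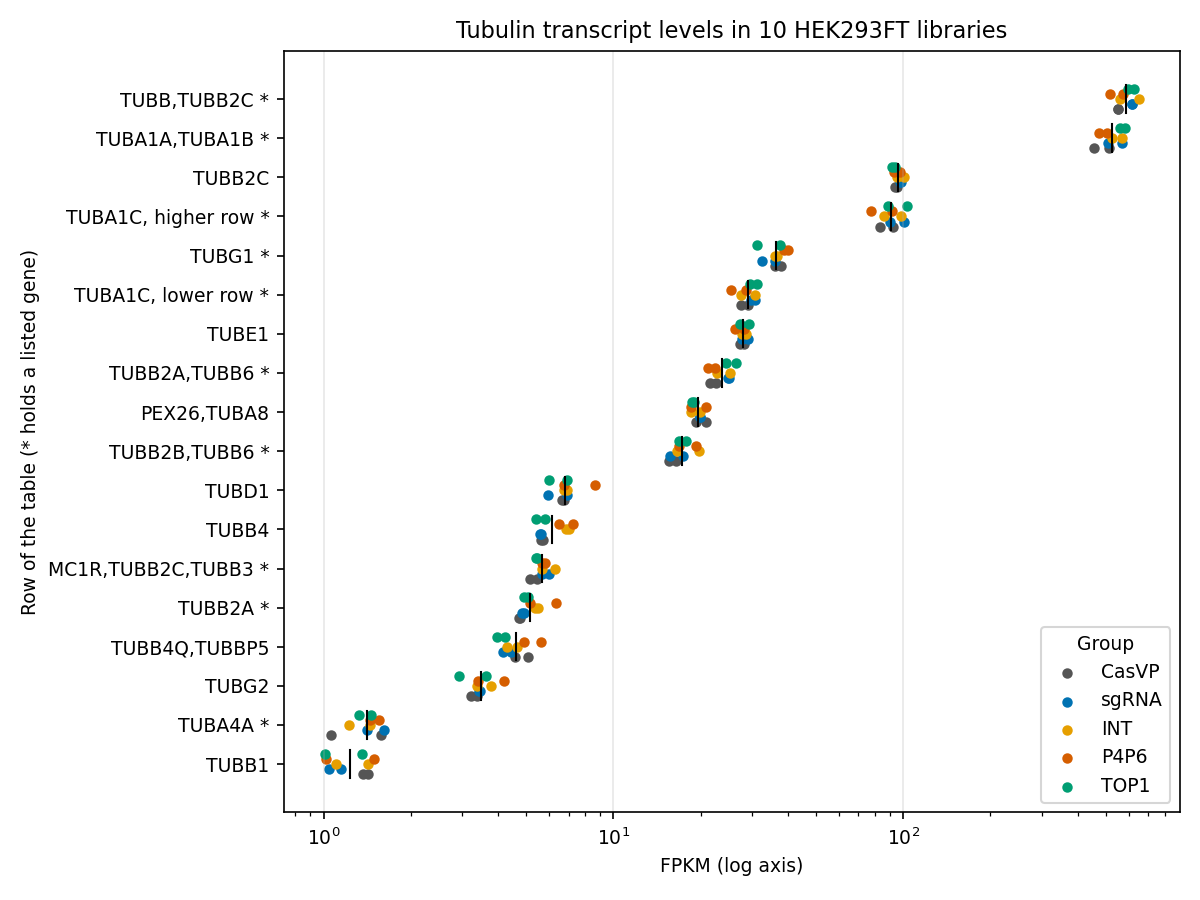
FPKM (log axis) of the 18 tested tubulin rows, 1 point per library, coloured by group, with a black bar at the mean of 10 libraries; a star marks rows that hold a listed gene. TUBB,TUBB2C (585.1) and TUBA1A,TUBA1B (525.9) stand over 5 times above the next rows, and the scatter within a row is far smaller than the distance from top to bottom.

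**Figure D3:**
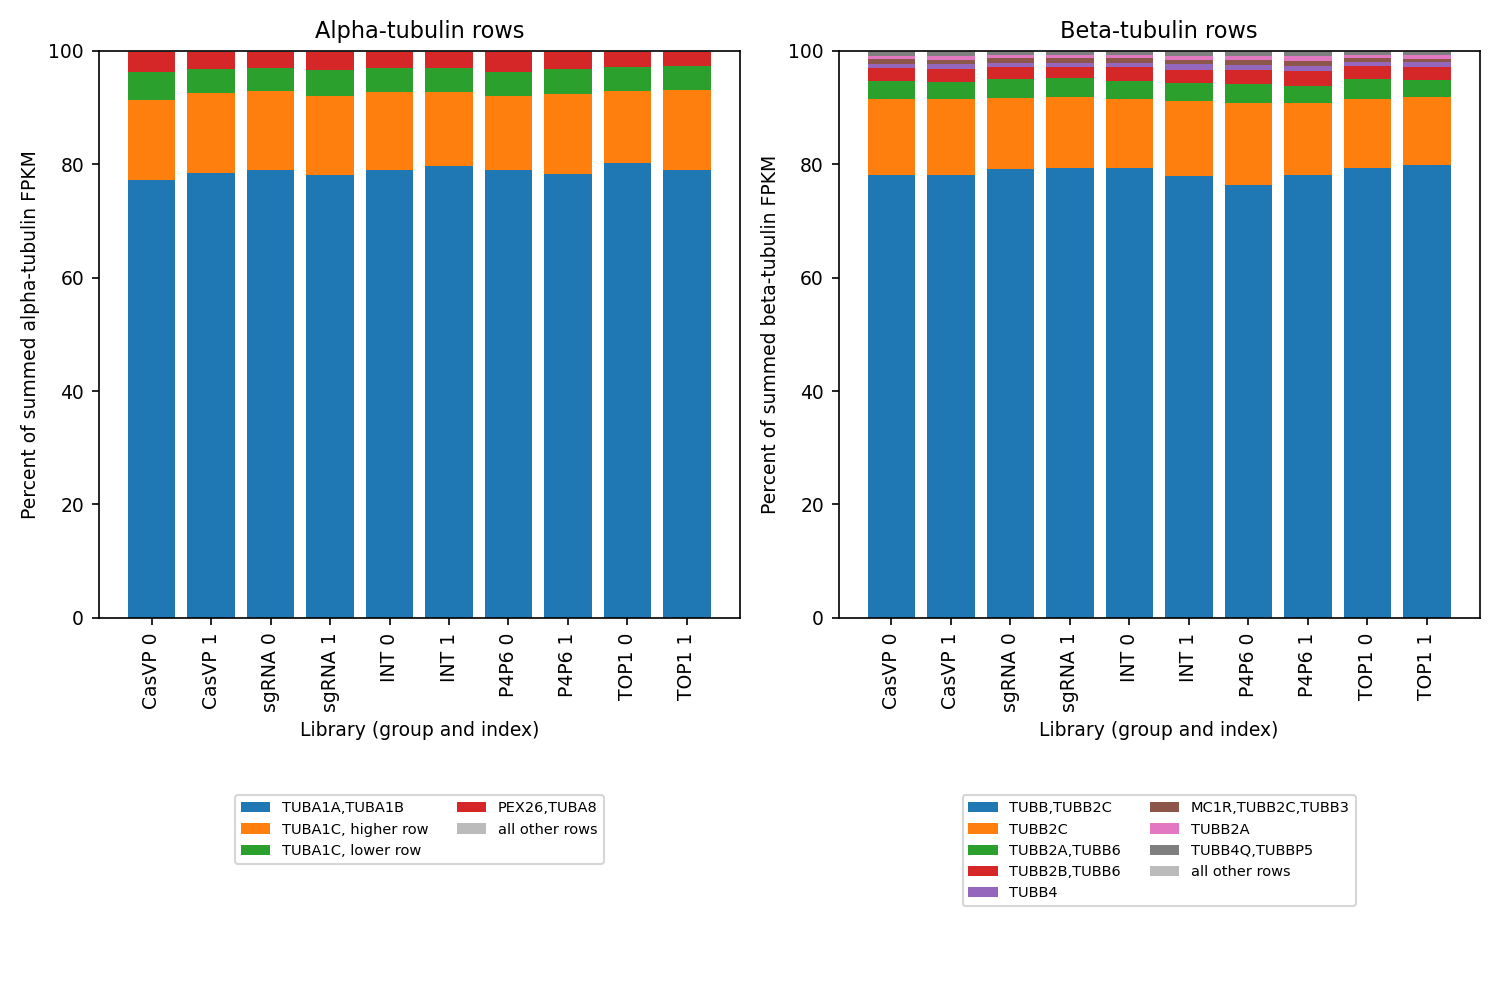
Share of each row in summed alpha FPKM (left) and summed beta FPKM (right), as a percent, in each of the 10 libraries named by group and index. The lowest segment, TUBA1A,TUBA1B on the left and TUBB,TUBB2C on the right, takes 77.3 to 80.1% and 76.4 to 79.8%.

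The first comparison asks whether giving a guide with dCas9-VP64 went with other tubulin levels than dCas9-VP64 alone. None of the 10 tested rows of listed genes passed (limma, Benjamini-Hochberg adjusted p under 0.05 over 11574 rows) when all guides were compared with CasVP; in that comparison 0.0173% of all rows passed, and these were the dCas9-VP64 and Gaussia transcripts. At an unadjusted p under 0.05 there were 2 listed rows. The estimates, on the scale of log2(FPKM + 1), ran from -0.04 for TUBG1 to 0.14 for TUBA1A,TUBA1B, with 9 of 10 above 0 and a median of 0.10, beside a median of -0.003 over all tested rows. The estimate was 0.14 (95% confidence interval 0.01 to 0.27, adjusted p = 0.669) for TUBA1A,TUBA1B and 0.10 (-0.02 to 0.23, adjusted p = 0.734) for TUBB,TUBB2C. The 4 guides share the CasVP libraries, so the guide comparisons below are not independent of each other.

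Against CasVP, 0 of 10 listed rows passed with the sgRNA guide (0.0173% of all rows passed), 0 with INT (0.0173%), 0 with P4P6 (0.00864%) and 0 with TOP1 (0.00864%). At an unadjusted p under 0.05 the counts were 1, 1, 1 and 2. For TUBA1A,TUBA1B the estimates were 0.15 (sgRNA), 0.17 (INT), 0.01 (P4P6) and 0.23 (TOP1). For TUBB,TUBB2C they were 0.16, 0.13, -0.02 and 0.15 in that order. The major alpha and beta rows thus had estimates of similar size with each guide, and the P4P6 estimates lay nearest to 0. The largest of these, for TUBA1A,TUBA1B with TOP1, had an interval of 0.07 to 0.40 and an adjusted p of 0.501.

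Counts of rows whose libraries do not overlap with those of CasVP were read against all rows. With sgRNA, 5 of 10 listed rows were higher in both libraries (24% of all rows) and 1, TUBG1, was lower (22%). With INT, 6 were higher (20.3%) and 0 lower (23.1%). With P4P6, 4 were higher (23.4%) and 0 lower (28.1%), and with TOP1, 6 were higher (24.7%) and 0 lower (23.5%). TUBB2A,TUBB6 was among the higher rows with sgRNA, INT and TOP1, and TUBB2B,TUBB6 with INT, P4P6 and TOP1.

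The INT, P4P6 and TOP1 guides were each also set against the sgRNA guide. No listed row passed for INT (0.00864% of all rows passed) or TOP1 (0.00864%), with 0 and 0 at an unadjusted p under 0.05. With INT, TUBB2A and TUBG1 were higher than in both sgRNA libraries (2 of 10, 19.7% of all rows) and 0 rows were lower (23.3%). With TOP1, 0 were higher (15.1%) and 1, MC1R,TUBB2C,TUBB3, was lower (14.1%). P4P6 against sgRNA differs from the other comparisons in its background: 1331 rows passed, 11.5% of all, 4.33% higher and 7.17% lower. Even so 0 of 10 listed rows passed, and 5 had an unadjusted p under 0.05. The nearest was TUBB2A,TUBB6, at 22.4 and 21.3 FPKM with P4P6 and 25.1 and 24.9 with sgRNA, an estimate of -0.19 (-0.33 to -0.05, adjusted p = 0.0758). With a replicate block by column index, which no label ties across groups, the TUBB2A,TUBB6 row passed (limma, adjusted p = 0.0241). Its index 0 library was the higher one in 5 of 5 groups, so its call depends on whether the index pairs libraries. TUBA1A,TUBA1B, TUBB,TUBB2C, TUBA1C (lower row) and TUBB2A,TUBB6 were lower in both P4P6 libraries (4 of 10, 30.6% of all rows) and TUBB2A and TUBG1 higher in both (2 of 10, 25.9%). For TUBG1 the estimate was 0.20 (0.02 to 0.37, adjusted p = 0.125) and for TUBB2A 0.19 (0.01 to 0.38, adjusted p = 0.145). TUBB2A depended on 1 library: without P4P6 replicate 0 it passed, at 0.32 against sgRNA (adjusted p = 0.0229) and 0.35 against CasVP (adjusted p = 0.0313).

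TUBB4, whose place among the rows is that of TUBB4A, was the 1 tubulin row that passed in any of the 7 pairwise comparisons. It read 6.51 and 7.24 FPKM with P4P6 and 5.63 and 5.60 with sgRNA, and rose by 0.25 on the log2 scale (0.10 to 0.40, adjusted p = 0.0443). The INT libraries, at 7.04 and 6.85, were as high as the P4P6 libraries, and the CasVP and TOP1 libraries, at 5.39 to 5.80, were near those of sgRNA. TUBB4 passed under 6 of 18 alternative settings, with adjusted p from 0.0239 to 0.215. The row that does name TUBB3, MC1R,TUBB2C,TUBB3, had an estimate of -0.02 (-0.17 to 0.14, adjusted p = 0.905) for P4P6 against sgRNA.

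**Figure D4:**
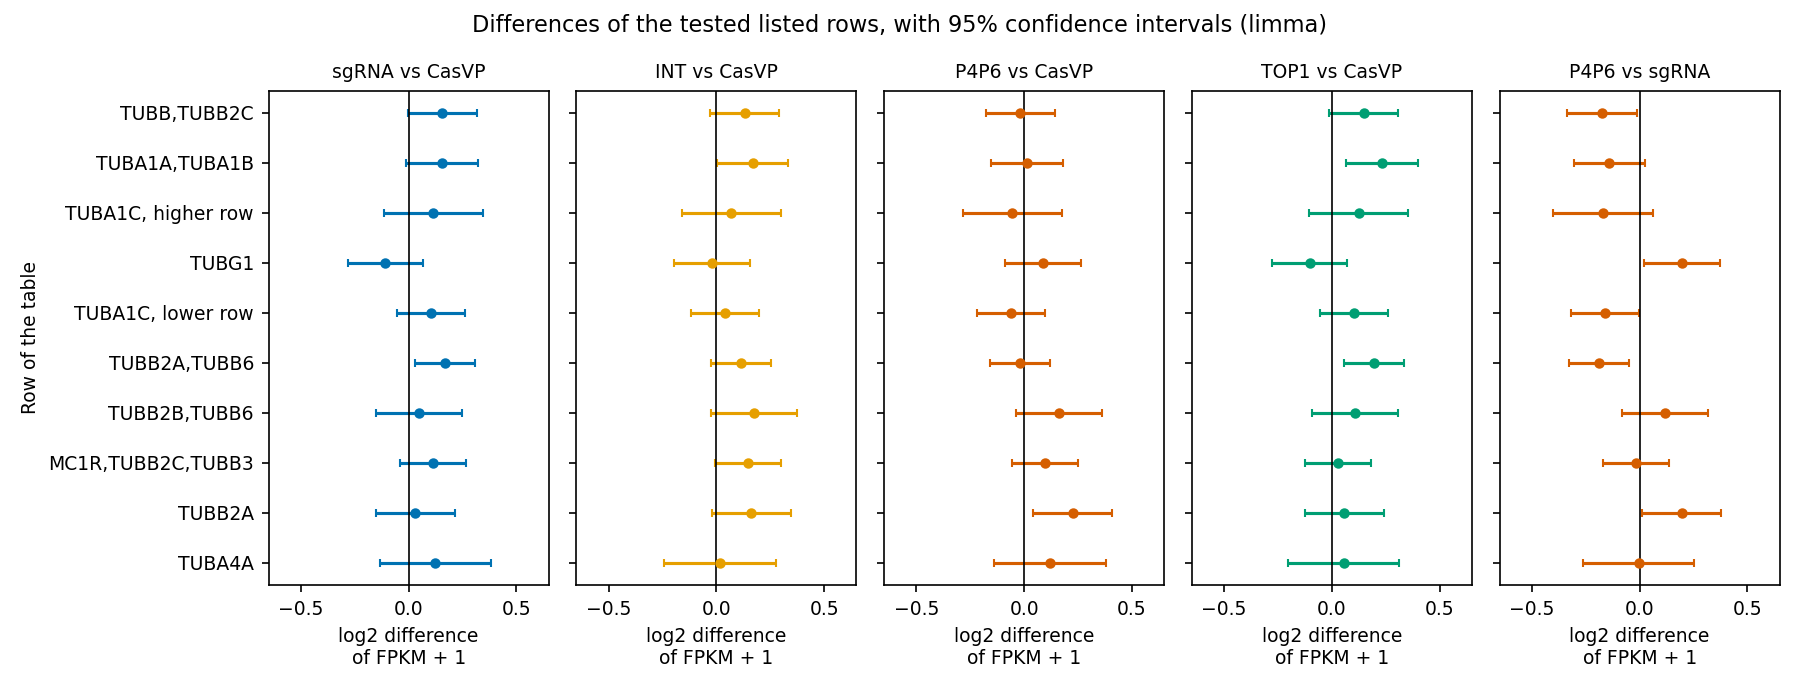
Differences of log2(FPKM + 1) for the 10 tested rows of listed genes (vertical axis) in 5 comparisons, each panel with its own pair of groups, 2 libraries per group; points are limma estimates and bars 95% confidence intervals. No row passed in any panel, and the estimates stay between -0.19 and 0.23.

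No difference among any of the 5 groups passed in the F-test for a listed row (0 of 10, where 0.0259% of all rows passed, and 2 listed rows had an unadjusted p under 0.05). The half-widths of the unadjusted 95% intervals of the listed rows for a pair of groups were 0.14 (TUBB2A,TUBB6) to 0.26 (TUBA4A) on the log2 scale. Estimates beyond these widths, such as -0.19 for TUBB2A,TUBB6 in P4P6 against sgRNA, did not pass after adjustment.

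Among related lists, mRNAs of tubulin-folding proteins gave the most calls. In P4P6 against sgRNA, 8 of 15 tested rows of the prefoldin and tubulin cofactor list fell and 0 rose (7.17% and 4.33% of all rows), with a median of -0.22 beside -0.01 over all rows. The 8 are the 6 subunits of prefoldin, the hexamer that hands unfolded tubulin and actin to CCT (VBP1, PFDN1, PFDN2, PFDN4, PFDN5 and PFDN6), TBCB, a cofactor that binds alpha-tubulin, and PDCL3, a CCT cochaperone. PFDN4 read 28.9 and 27.3 FPKM with P4P6, 38.1 and 35.2 with sgRNA, 32.2 and 31.5 in CasVP, 32.8 and 30.1 with INT, and 34.5 and 34.6 with TOP1. PFDN6 read 91.4 and 93.8 with P4P6, 117 and 116 with sgRNA, 108 and 105 in CasVP, 109 and 99.8 with INT, and 116 and 111 with TOP1. For both genes the P4P6 libraries were the lowest of all and the sgRNA libraries were above CasVP. PFDN4 fell by 0.37 (adjusted p = 0.0221), PFDN6 by 0.33 (0.0221), PFDN5 by 0.27 (0.0342), PFDN1 by 0.25 (0.025), PFDN2 by 0.24 (0.0262) and VBP1 by 0.17 (0.0339).

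Against CasVP, 0 of the 15 folding rows passed with P4P6, where 1 of 15 estimates was above 0 with a median of -0.12, and 0 passed with sgRNA, where 13 were above 0 with a median of 0.09. The count of 8 in P4P6 against sgRNA fell to 0 when CasVP replicate 0 or 1, P4P6 replicate 1, or sgRNA replicate 0 or 1 was left out, and it was 5 without either TOP1 library and 7 or 8 without the others. Fitted on the P4P6 and sgRNA libraries only, it was 0 and the whole count was 2 in place of 1331. The whole count ran from 1 to 2045 when 1 library was left out, so the calls of this comparison depend on which libraries are kept. The highest folding row was TBCA, a cofactor that holds beta-tubulin, at 370.4 ± 32.0 FPKM over all libraries, then PFDN5 (263.9 ± 21.8), PFDN2 (135 ± 9.95) and PFDN6 (107 ± 9.18). TBCA did not pass in any comparison.

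**Figure D5:**
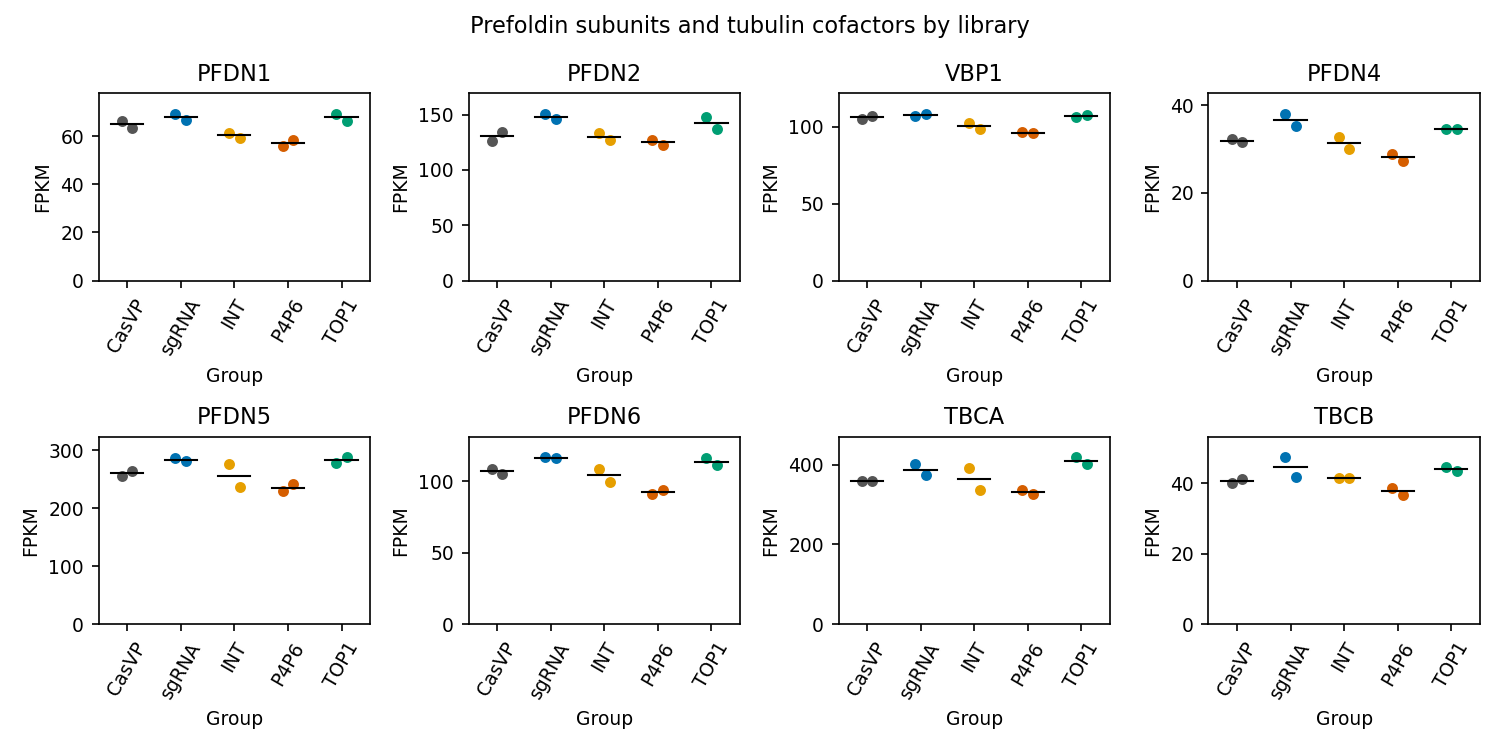
FPKM (vertical axis from 0) of the 6 prefoldin subunits and the cofactors TBCA and TBCB by group (horizontal axis), 1 point per library and a bar at each group mean of 2. Both P4P6 libraries lie lowest for VBP1, PFDN1, PFDN4, PFDN6 and TBCB, with PFDN6 at 91.4 and 93.8 beside 117 and 116 for sgRNA.

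Genes that act on microtubules otherwise gave calls in P4P6 against sgRNA only, at a share near that of all rows: 10 of the 83 tested rows in 5 lists passed (12.0%, beside 11.5% of all rows). Of 18 rows for the gamma-tubulin ring complex and its recruiters, 2 rose, TUBGCP6, a subunit of the ring (0.24), and PCNT, a scaffold that anchors it (0.29), and 1 fell, HAUS1 of the augmin complex (by 0.32). Of 31 rows for microtubule-binding proteins, KIAA1543 (CAMSAP3), a minus-end binder (0.37), and TACC3, a spindle protein (0.19), rose, and the plus-end proteins MAPRE1 and CKAP5 fell by 0.18 and 0.15. The glutamylase TTLL4 rose (0.21; 1 of 15 modifying enzymes), the katanin subunit KATNA1 fell by 0.23 (1 of 7 severing rows), and CNOT3, of the deadenylase complex, rose (0.25; 1 of 12 rows for tubulin mRNA autoregulation). In these 5 lists 6 rows rose and 4 fell (7.23% and 4.82%, beside 4.33% and 7.17% of all rows), and none of their rows passed for all guides against CasVP. Each of the 18 calls in these lists and the folding list was lost in 6 to 15 of 18 alternative settings.

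By level, the most abundant microtubule-binding transcript was STMN1, which sequesters tubulin dimers, at 281.8 ± 14.9 FPKM, followed by MAPRE1 (103 ± 6.32), CKAP5 (97.6 ± 5.51) and CKAP2 (66.6 ± 4.19). The ring complex list was led by HAUS1 (50.2 ± 4.72), HAUS6 (49.3 ± 2.44), HAUS4 (44.9 ± 3.67) and TUBGCP2 (41.2 ± 1.25), levels close to that of TUBG1. Modifying enzymes were led by ARPC4,TTLL3 (51.4 ± 2.28, joint with an actin regulator), AGBL5 (46.5 ± 1.55), TTLL12 (40.7 ± 2.27) and AGTPBP1 (33.9 ± 1.05), and the severing proteins included FIGNL1 (29.8 ± 1.10), KATNA1 (27.2 ± 1.98) and SPAST (9.08 ± 0.206). In the autoregulation list CNOT1 (94.3 ± 2.24), CNOT10 (48.4 ± 2.61), RQCD1 (41.7 ± 1.86) and CNOT7 (39.4 ± 1.60), all of the deadenylase complex, stood above TTC5 (15.7 ± 1.23), which reads the nascent tubulin.

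The rows most like each main tubulin row were listed by Pearson's r of log2(FPKM + 1) over the 10 libraries among 9126 rows with a mean of at least 5 FPKM; all libraries share the authors' scaling. For TUBA1A,TUBA1B they were JRKL (0.907), MFF (0.904) and ATP5J (0.895). For TUBB,TUBB2C they were CALCOCO2 (0.976), the EIF4B row (0.974) and VPS8 (0.973). Those of MC1R,TUBB2C,TUBB3 included MTCH1 (0.932) and MFGE8 (0.902), and TUBG1 was nearest to GPR161 (0.960), GRB2 (0.959) and FBXO42 (0.948). No other tubulin row was among these.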

How the data were processed

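Polyadenylated RNA was measured in 10 libraries of transfected HEK293FT cells, 2 for each of 5 groups taken from the sample titles. The deposited values are FPKM made by the authors, in a table with a column for each library, and no such column was left unused. The build hg19 and the tools TopHat2 2.0.13 and Cuffdiff 2.2.1 are named, per the submitters' processing notes, and the sources used here do not give the role of each tool, the gene annotation or how libraries were scaled. No counts were used, and relative depth was estimated from rows with a mean of at most 0.05 FPKM: 73.4% of 8402 such values were whole multiples of a library's step within 0.05, short of recovering the reads. The absolute depth rests on 225 rows, with quartiles of 26100000 and 30000000 fragments for CasVP replicate 0. Of 20246 rows, 945 have no name (2.31 to 2.47% of summed FPKM) and were left out.

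Values were transformed as log2(FPKM + 1), and rows with a mean of at least 1 FPKM over all libraries were tested (11574). Fold changes on this scale understate those of low rows. limma 3.58.1 in R 4.3.3 fitted a mean for each group with an intensity trend over all 10 libraries (5 residual degrees of freedom), with two-sided moderated tests and Benjamini-Hochberg adjustment over all tested rows at 0.05. The procedure was tested on simulated data. Sums and shares over rows were described without a test. Coding sequences came from GENCODE v29, aligned pairwise, and older symbols from RefSeq, neither of the build of the files, and no position was carried between builds. Fragments behind a row were estimated from FPKM, depth and transcript length.

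The members, the lists of related genes and the alternatives were chosen with earlier results of these data known. Named are all rows of the 10 genes, the 4 highest rows of each list and any that passed, and the 3 rows most like 4 tubulin rows. A few items that this rule would name are not reported here. Alternatives were a pseudocount of 0.1, no filter, a filter at 5 FPKM, no intensity trend, the compared groups only, a replicate block, quantile normalization, median-of-ratios scaling, and each library left out. Shares were also taken over the listed genes only and without joint rows. Shares without rows joined with another family, and the calls of related genes in P4P6 against sgRNA under each alternative, were added after seeing the data.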

Additional observations from a re-analysis of the deposited data

How the results depend on the processing

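Of 1591 tests of the listed tubulin rows under alternatives, 4 passed: TUBB2A without P4P6 replicate 0 in both P4P6 comparisons, and TUBB2A,TUBB6 with a replicate block for P4P6 against sgRNA (adjusted p = 0.0241) and among all groups (0.0398). Of 2542 estimates for all tubulin rows, 94 changed sign, none of them called in either fit, and the largest such estimate was 0.12. Counts of all rows that passed moved as follows, and the cause was not tested. Without the filter there was 1 for sgRNA against CasVP, 3 for TOP1 against CasVP, 641 for P4P6 against sgRNA, 3 for TOP1 against sgRNA, 1 for all guides and 5 among the groups. A filter at 5 FPKM gave 5 among the groups. Quantile normalization gave 7 for P4P6 against CasVP, 389 for P4P6 against sgRNA and 25 among the groups. Without the trend there was 1 for sgRNA against CasVP, 668 for P4P6 against sgRNA, 1 for all guides and 1 among the groups. With the compared groups only there were 4 for sgRNA against CasVP and 2 for P4P6 against sgRNA. Leaving out 1 library gave 1 to 2 for sgRNA, INT and TOP1 against CasVP and for INT and TOP1 against sgRNA, 1 to 765 for P4P6 against CasVP, 1 to 2045 for P4P6 against sgRNA, 1 to 3 for all guides and 1 to 526 among the groups; the highest P4P6 counts came without P4P6 replicate 0. The prefoldin and cofactor count of 8 was 5 without the filter, 2 with quantile normalization, 3 without the trend and 0 with the compared groups only.

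A replicate block by column index gave 600 rows for P4P6 against CasVP, 2326 for P4P6 against sgRNA, 1288 among the groups and 10 folding rows. Deviations of same-index libraries correlated between -0.0364 (INT with TOP1) and 0.415 (P4P6 with sgRNA) over 10 pairs of groups. With 2 pairs at or below 0.1, both of them with TOP1, the index was not taken to pair libraries in the main fit. For P4P6 against sgRNA, the pair with the highest correlation, whether it does so is not settled.

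Shares depend on which rows are summed. Over listed genes only, TUBA1A,TUBA1B made up 81.2% of alpha (also 81.2% without the PEX26 row), TUBB,TUBB2C 91.9% of beta, TUBB2A,TUBB6 3.72%, TUBB2B,TUBB6 2.71%, MC1R,TUBB2C,TUBB3 0.890% and TUBB2A 0.813%. Without joint rows, the rows named TUBA1C made up 74.7% (higher row) and 23.9% (lower row) of alpha and TUBA4A 1.17%. Of beta, TUBB2C then made up 88.4%, TUBB4 5.66%, TUBB2A 4.76% and TUBB1 1.15%.

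With 2 libraries per group the intervals are wide. The place of a row with several names can mark a locus, but its FPKM cannot be divided between the named genes.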
